A study of Mus musculus with 12 samples.

Results

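The loci of the Ikaros family were examined across early T cell development in mouse haematopoietic progenitors. The family comprises Ikzf1, Ikzf2, Ikzf3, Ikzf4 and Ikzf5. DNase-seq peaks were taken from 12 libraries wherever they lay inside the body of one of these 5 genes or within 50 kb on either side (mm10, GENCODE M21). Peaks of all libraries that overlapped by at least 1 bp were merged into DNase-hypersensitive sites (DHSs). This gave 143 DHSs at the family loci out of 170207 on the autosomes and the X chromosome: 37 at Ikzf1, 25 at Ikzf2, 35 at Ikzf3, 31 at Ikzf4 and 15 at Ikzf5. DHSs are numbered within each locus by coordinate, and distances run from the start of the gene along its strand.

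DNase I cuts DNA where chromatin is open, and clusters of cuts were called as peaks. LSK cells are haematopoietic stem and early progenitor cells of the marrow, negative for lineage markers and positive for SCA-1 and c-KIT. They were isolated from C57BL/6J mice and gave 3 libraries. Culture of LSK cells with the plate-bound Notch ligand Delta1 gave early T cell precursors, sorted as DN1 (KIT++CD44+CD25-, 2 libraries), DN2a (KIT++CD44+CD25+, 2 libraries) and DN2b (KIT+CD44loCD25+, 2 libraries). The IgG group (3 libraries) was the control culture of LSK cells on human immunoglobulin, with no Notch ligand. All cultures contained stem cell factor, FLT-3 ligand, IL-6 and IL-11, and IL-7 was added for DN2a and DN2b only, so that stage and IL-7 cannot be told apart between DN1 and DN2 cells. The labels name no deletion or transgene in any group, the ages of the mice are not given in the sources used here, and no thymic environment was present beyond the ligand and the cytokines.

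Ikaros family proteins bind DNA through zinc fingers near the N terminus and pair with one another through zinc fingers near the C terminus. Ikzf1 encodes Ikaros, which is required for normal lymphoid development and recruits chromatin remodelling and histone deacetylase complexes to its targets. Ikzf2 encodes Helios, expressed in progenitors and in T cells, Ikzf3 encodes Aiolos, known from maturing lymphocytes, Ikzf4 encodes Eos, known as a partner of Foxp3 in regulatory T cells, and Ikzf5 encodes Pegasus, the most divergent and most widely expressed member. Ikaros proteins and RBPJ, the DNA-binding partner of Notch, can read the same core sequence.

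Among these loci, 10 DHSs that overlap no annotated exon are shown as sequence because each was open in all libraries on one side of a comparison and in none on the other. They were those with the largest difference at their locus in that comparison among such DHSs. Sequences are the forward strand of GRCm38 from RefSeq, 5′ to 3′, and capitals mark matches on either strand to 6 core sequences. These are TGGGAA for Ikaros proteins and RBPJ, TGTGGT for RUNX factors, AGATAA for GATA factors, CTTTGA for TCF1 and LEF1, AGGAAG for ETS factors and CAGGTG for E proteins. The first 3 were open in every Delta1 library and in no LSK or IgG library: Ikzf1 site 14 (chr11:11711837-11712066, an Ikzf1 intron), Ikzf3 site 5 (chr11:98457477-98457666, between genes) and Ikzf4 site 3 (chr10:128587197-128587386, an intron of the neighbouring gene Erbb3).
Ikzf1 site 14: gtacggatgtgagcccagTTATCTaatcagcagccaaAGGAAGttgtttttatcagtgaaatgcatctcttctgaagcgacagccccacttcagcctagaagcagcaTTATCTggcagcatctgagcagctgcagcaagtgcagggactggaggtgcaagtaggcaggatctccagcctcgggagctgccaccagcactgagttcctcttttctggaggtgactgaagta
Ikzf3 site 5: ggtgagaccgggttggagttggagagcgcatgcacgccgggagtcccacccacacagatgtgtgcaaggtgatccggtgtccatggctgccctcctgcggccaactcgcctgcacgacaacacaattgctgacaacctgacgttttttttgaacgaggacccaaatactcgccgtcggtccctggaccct
Ikzf4 site 3: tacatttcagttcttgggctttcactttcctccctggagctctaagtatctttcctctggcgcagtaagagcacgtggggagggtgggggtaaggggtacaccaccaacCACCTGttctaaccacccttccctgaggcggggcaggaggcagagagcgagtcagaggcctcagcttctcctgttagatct

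The next 4 were open in all 4 DN2 libraries and in no LSK or DN1 library. They were Ikzf1 site 7 (chr11:11679037-11679206, an intron of the non-coding gene Gm11999), Ikzf2 site 17 (chr1:69681097-69681286, an Ikzf2 intron), Ikzf3 site 13 (an Ikzf3 intron, of which the central 300 bases, chr11:98469932-98470231, are shown) and Ikzf4 site 22 (chr10:128663557-128663786, an intron of the non-coding gene Gm49782).
Ikzf1 site 7: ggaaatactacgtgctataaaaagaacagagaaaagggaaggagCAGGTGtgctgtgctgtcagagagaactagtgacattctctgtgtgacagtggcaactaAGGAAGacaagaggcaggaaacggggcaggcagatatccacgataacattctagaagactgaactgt
Ikzf2 site 17: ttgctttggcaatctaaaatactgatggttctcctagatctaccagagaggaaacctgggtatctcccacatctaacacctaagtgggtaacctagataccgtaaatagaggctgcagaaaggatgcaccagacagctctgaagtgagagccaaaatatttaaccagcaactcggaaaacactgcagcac
Ikzf3 site 13: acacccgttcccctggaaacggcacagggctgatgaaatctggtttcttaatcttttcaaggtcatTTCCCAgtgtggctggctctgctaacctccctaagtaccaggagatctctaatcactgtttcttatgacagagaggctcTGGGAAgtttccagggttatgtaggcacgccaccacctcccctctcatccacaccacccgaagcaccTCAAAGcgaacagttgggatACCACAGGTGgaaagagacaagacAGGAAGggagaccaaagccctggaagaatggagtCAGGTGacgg
Ikzf4 site 22: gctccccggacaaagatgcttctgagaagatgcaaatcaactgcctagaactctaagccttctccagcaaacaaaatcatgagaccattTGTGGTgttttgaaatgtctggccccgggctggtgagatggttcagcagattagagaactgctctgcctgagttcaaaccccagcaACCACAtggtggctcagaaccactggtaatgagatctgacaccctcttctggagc

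The last 3 were open in all 9 libraries outside the IgG group and in none of the IgG libraries. They were Ikzf1 site 29 (chr11:11766237-11766406, an Ikzf1 intron), Ikzf2 site 4 (chr1:69513677-69513866, between genes) and Ikzf4 site 9 (chr10:128612737-128612906, between genes).
Ikzf1 site 29: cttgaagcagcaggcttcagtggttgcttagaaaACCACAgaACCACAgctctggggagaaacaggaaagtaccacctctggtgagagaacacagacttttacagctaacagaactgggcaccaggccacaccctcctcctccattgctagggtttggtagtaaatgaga
Ikzf2 site 4: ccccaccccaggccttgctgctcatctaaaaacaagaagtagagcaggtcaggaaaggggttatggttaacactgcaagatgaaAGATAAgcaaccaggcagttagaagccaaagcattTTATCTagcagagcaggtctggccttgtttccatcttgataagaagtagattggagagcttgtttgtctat
Ikzf4 site 9: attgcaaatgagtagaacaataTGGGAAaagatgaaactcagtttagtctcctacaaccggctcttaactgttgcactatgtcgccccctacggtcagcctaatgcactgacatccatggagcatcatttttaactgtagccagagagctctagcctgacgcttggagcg

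The place given for a DHS is that of its midpoint. Each peak carries a score, which ranked the peaks of a library. A score percentile of 90.0 means that the peak ranked above 90.0% of the peaks of its own library, with ties at their middle rank, and 0 means that no peak was called. The lists held between 32952 and 111582 peaks on the chromosomes used, a 3.39-fold range. Read depth was not analysed here, and an absent peak therefore means less in a short list than in a long one. The 3 IgG lists were the shortest (32952 to 37511 peaks), LSK lists held 53869 to 62377, and Delta1 lists held 57729 to 111582, with DN2b replicate 2 the longest. Percentiles also rise with list length, so values at equal list lengths, that is, with only the 32952 highest-scoring peaks of each library, are given beside the main results.

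**Figure D1:**
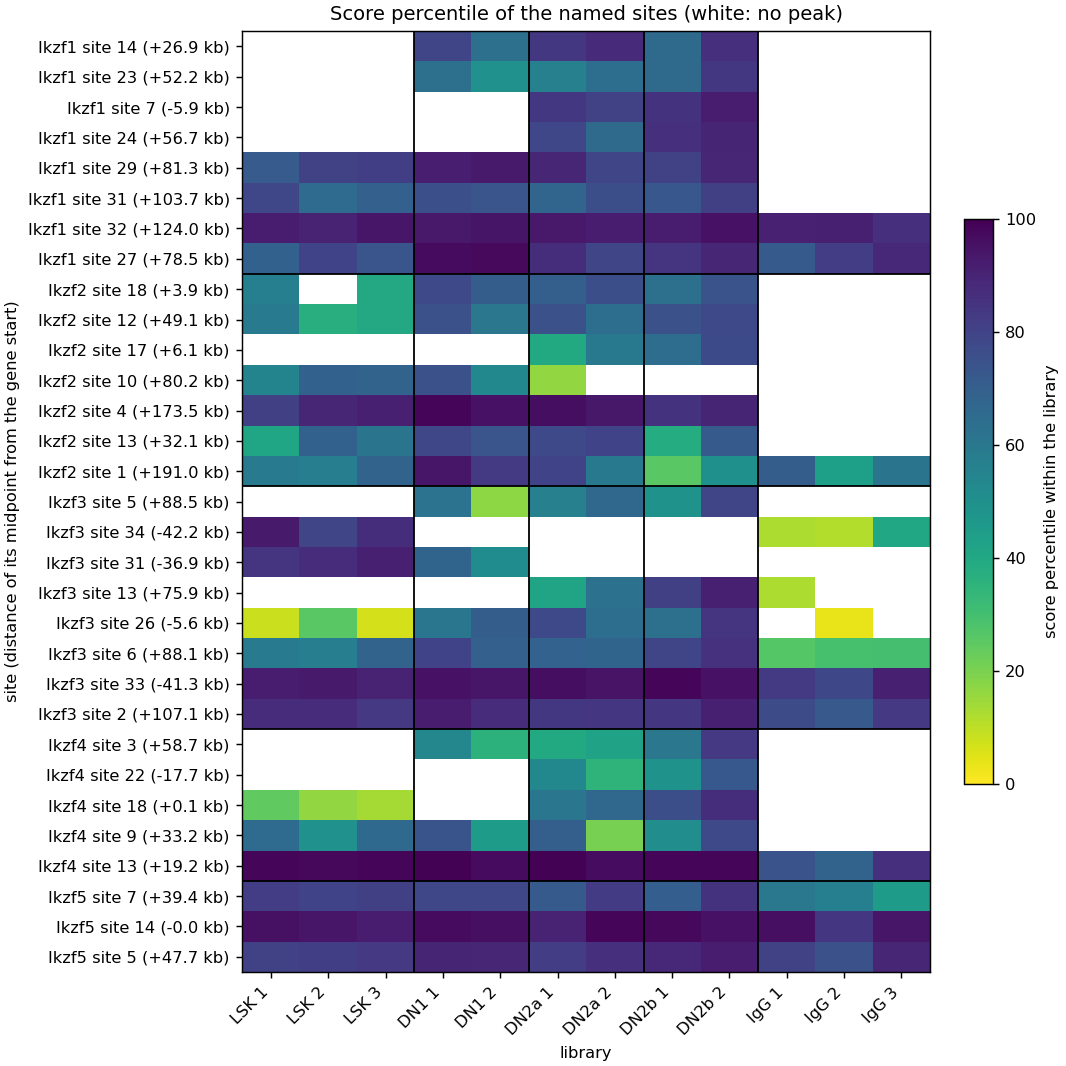
Score percentile of 31 named DHSs at the 5 loci in the 12 libraries. Rows are DHSs with the distance of their midpoint from the gene start, columns are libraries grouped as LSK, DN1, DN2a, DN2b and IgG, and white means no peak. Ikzf1 sites 14 and 23 are coloured in all 6 Delta1 libraries only, and Ikzf1 sites 7 and 24 in the 4 DN2 libraries only.

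Markers of the sorted stages were checked through their promoters, where a promoter counted as open if any peak was centred no more than 1 kb from the 5′ end of the gene record. Of 10 T cell precursor genes, 1 to 2 were open in LSK libraries, 4 in DN1, 7 in DN2a, 9 to 10 in DN2b and 0 in IgG, and their summed percentile was 21.3 to 48.3 in LSK, 202.1 to 228.6 in DN1, 500.5 to 503.4 in DN2a and 677 to 845 in DN2b. At equal lengths 0 to 1 were open in LSK, 1 to 2 in DN1, 6 to 7 in DN2a, 8 to 9 in DN2b and 0 in IgG. Of 6 LSK genes, 4 were open in LSK, DN1 and DN2b libraries, 3 to 4 in DN2a and 2 to 3 in IgG. By number they thus did not set LSK apart from the Delta1 stages. Their summed percentile was 322.6 to 355.7 in LSK, 339.6 to 354.3 in DN1, 244.8 to 280.7 in DN2a, 262.5 to 312.6 in DN2b and 92.3 to 193.8 in IgG. Kit was open in all 12 libraries, whereas Ly6a, which encodes SCA-1, and Hoxa9 had no promoter peak in any library. Of 7 myeloid genes, 2 to 3 were open in every non-IgG library and 4 to 6 in IgG libraries, with a summed percentile of 353.6 to 439.7 in IgG against 87.6 to 234.8 elsewhere, and S100a8, a granulocyte gene, was open in the 3 IgG libraries alone. At equal lengths 0 to 3 myeloid genes were open outside IgG and 4 to 6 in IgG. Among B cell genes, Cd79a and Pax5 had no promoter peak in any library, Blk was open in 5 libraries and Ebf1 in 10, with no peak in 2 of the 3 IgG libraries. Among mast cell and basophil genes, Ms4a2 was open in none, Gata2 in 1 and Mcpt8 in 7, while Cpa3 was open in the 9 libraries outside IgG, where it was lower in LSK (30.2 to 52.7) than in Delta1 libraries (54.3 to 85.0). Finally, 0 of 4 erythroid genes were open in IgG libraries. A change in the mixture of cells and a change within the cells cannot be told apart in such bulk libraries, and the part of the myeloid and mast cell genes in the differences at the Ikaros family loci was not tested.

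The number of DHSs open at the 5 loci together was lowest in IgG libraries, and at equal list lengths it was highest in the DN2 stages. With lists as deposited, DN1 replicate 1 (73) lay above both DN2a libraries and DN2b replicate 1. LSK libraries had 42, 39 and 43 open DHSs, DN1 libraries 73 and 58, DN2a libraries 68 and 67, DN2b libraries 68 and 107, and IgG libraries 22, 22 and 26. At equal list lengths the counts were 34, 32 and 28 in LSK, 39 and 35 in DN1, 44 and 52 in DN2a, 47 and 49 in DN2b, and 20, 22 and 23 in IgG. The ranges of LSK, DN1 and IgG did not overlap those of the DN2 libraries at equal lengths. Per 10000 peaks of the library, IgG (5.86 to 6.93) and LSK (6.89 to 7.80) overlapped. DN1 libraries had 7.57 and 8.36 by this measure, DN2a libraries 9.93 and 11.6, and DN2b libraries 11.1 and 9.59. Of the 143 DHSs, 11 (7.69%) were open in all 12 libraries, against 7.68% of all DHSs, and 43 (30.1%) were open in a single library, against 32.7%. Of those 43, 24 were seen in DN2b replicate 2 alone.

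**Figure D2:**
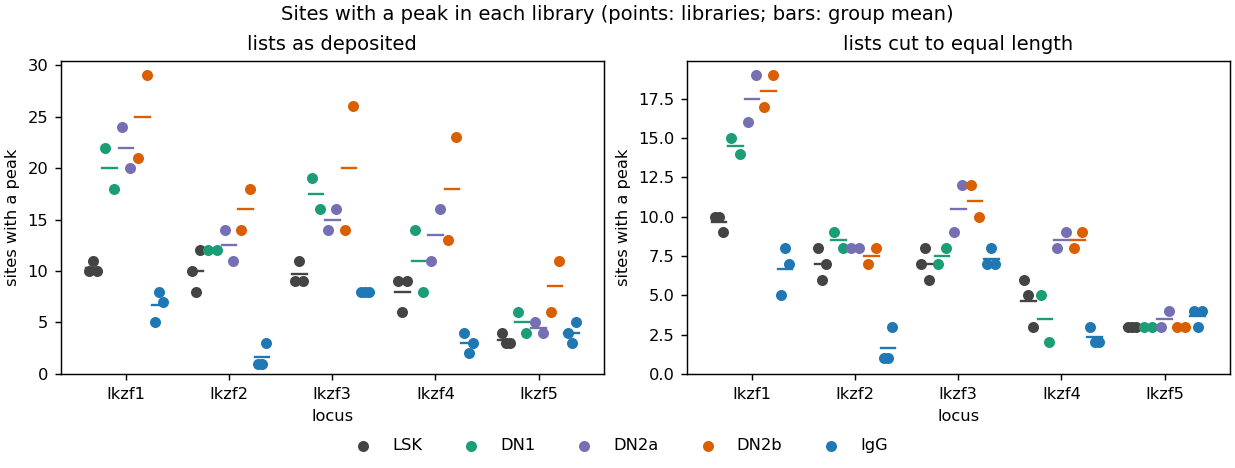
Number of DHSs with a peak at each locus in each library, with lists as deposited (left) and at equal length (right). Points are libraries and bars are group means, the 5 groups being shown by colour. At equal length, Ikzf1 libraries run from 9 to 10 in LSK to 16 to 19 in DN2a, and Ikzf2 libraries in IgG have 1 to 3.

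Ikzf1 (ENSMUSG00000018654.17, chr11:11685003-11772926, plus strand) showed the most new DHSs along the pathway. LSK libraries had 10, 11 and 10 open DHSs, DN1 libraries 22 and 18, DN2a libraries 24 and 20, DN2b libraries 21 and 29, and IgG libraries 5, 8 and 7. At equal lengths LSK libraries had 9 to 10, DN1 libraries 14 to 15, DN2a libraries 16 to 19, DN2b libraries 17 to 19 and IgG libraries 5 to 8, so that LSK and IgG stayed below all Delta1 libraries. With presence in a group defined as a peak in at least 2 replicates, 7 of the 37 DHSs were present in DN1 and not in LSK. By this rule 7 others were first present in DN2a and 3 in DN2b. The rule asks for both replicates in DN groups and for 2 of 3 in LSK, and single peaks do not count. Sites 13, 33 and 37, counted for DN1, had 1 LSK peak. Sites 5, 11, 18 and 34, counted for DN2a, had 1 DN1 peak, and site 34 also 1 in LSK. Sites 1, 3 and 28, counted for DN2b, had a single peak in DN1 or DN2a. At equal lengths these counts were 5, 5 and 4 of 28 DHSs. The matching shares of all DHSs are not given here, so these counts only describe the locus. Expressed per 10000 peaks of the library, Ikzf1 had 2.98 ± 0.544 open DHSs in Delta1 libraries (SD, n = 6) and 1.85 ± 0.372 in LSK and IgG libraries (SD, n = 6). This difference of 1.13 did not pass the exact permutation test after adjustment over 21755 genes (adjusted p = 0.083), in which 0 of the 21755 genes were called and 4627 had an unadjusted p under 0.05. It passed the same exact permutation test with the upper 50% of each list (2.13, adjusted p = 0.039), as did 2.58% of genes, and as a number of DHSs not divided by list length (13.8, adjusted p = 0.0315), as did 14.6% of genes.

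Among the Ikzf1 DHSs seen with Delta1, 2 intronic ones are described first. Site 14, in an intron 26.9 kb past the start, had percentiles of 79.2 and 63.2 in DN1, 83.8 and 88.2 in DN2a and 65.6 and 86.7 in DN2b, and no peak in any LSK or IgG library. It was open in every Delta1 library at equal lengths too (22.5 to 79.3). The mean difference was 77.8 percentile points (exact permutation p = 0.00216, adjusted p = 0.0394 over 170207 DHSs), the smallest p that 924 divisions of the libraries can give. This call, like those of all member DHSs in this comparison, was lost when DN1 replicate 1 or any DN2a or DN2b library was left out. With so few divisions left, even a complete split such as that at site 14 did not pass. The difference at site 14 was not lost with the call, at 75.7 to 80.7 with 1 library left out. Site 23 (chr11:11737097-11737366), in an intron at 52.2 kb, followed the same pattern with 63.2 and 49.5 in DN1, 56.5 and 63.9 in DN2a, and 65.6 and 83.8 in DN2b. At equal lengths only its 4 DN2 peaks were left.

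Other Ikzf1 DHSs were open from DN2a on. Site 7, at -5.88 kb from the Ikzf1 start, had percentiles of 83.8 and 80.7 in DN2a and 85.3 and 92.0 in DN2b and no peak in the other 8 libraries. Site 24 (chr11:11741657-11741826), in an intron at 56.7 kb, had 78.6 and 65.3 in DN2a and 86.4 and 89.6 in DN2b and likewise no other peak. Both kept this pattern at equal lengths, with 66.3 to 73.1 at site 7 and 39.2 to 74.7 at site 24. Another such DHS, site 19 (chr11:11726017-11726286), was not taken by the naming rule and was picked after its values were seen. It had 39.3 and 37.6 in DN2a and 76.0 and 80.6 in DN2b, and at equal lengths its DN2a peaks were lost.

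The opposite pattern was seen at site 21. This DHS (chr11:11730157-11730446), in an intron at 45.3 kb and also picked after its values were seen, had percentiles of 70.1, 65.0 and 73.6 in LSK, 73.4 and 51.5 in DN1 and 90.5, 91.3 and 95.9 in IgG, with no peak in any DN2 library. The IgG libraries were the highest, above all LSK and DN1 libraries. The mean was 66.7 in LSK and DN1 against 0 in DN2 (exact permutation p = 0.00794, adjusted p = 0.266). At equal lengths 1 of the 2 DN1 peaks was also absent.

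IgG libraries lacked several Ikzf1 DHSs that LSK cells had, a share no larger than over all DHSs. Present in LSK and not in IgG, by the rule of 2 replicates, were 5 of the 37 (13.5%). The share was 15.4% over the 143 member DHSs and 17.7% over all DHSs. Site 29, in an intron at 81.3 kb, had percentiles of 71.3, 80.6 and 81.6 in LSK, 91.7 and 92.9 in DN1, 89.4 and 79.2 in DN2a and 80.3 and 89.3 in DN2b, and no peak in IgG, a difference of -84.0 between IgG and the other libraries (adjusted p = 0.0429 by the exact permutation test). The calls of this comparison were lost for all member DHSs when any library other than DN2b replicate 2 was left out. The difference at site 29 was not lost with them, at -85.6 to -82.9 with 1 library left out. Site 31 (chr11:11788557-11788946), in a non-coding exon of the neighbour Fignl1, ranged from 65.0 to 81.0 over the 9 libraries outside IgG and had no IgG peak. Both patterns held in all 9 libraries at equal lengths. Site 32 (chr11:11808877-11809066), within 1 kb of the Fignl1 start, was open in all 12 libraries at 86.3 to 94.9, and the intronic site 27 (chr11:11763457-11763646) at 68.9 to 97.3, where DN1 was highest with 97.2 and 97.3.

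**Figure D3:**
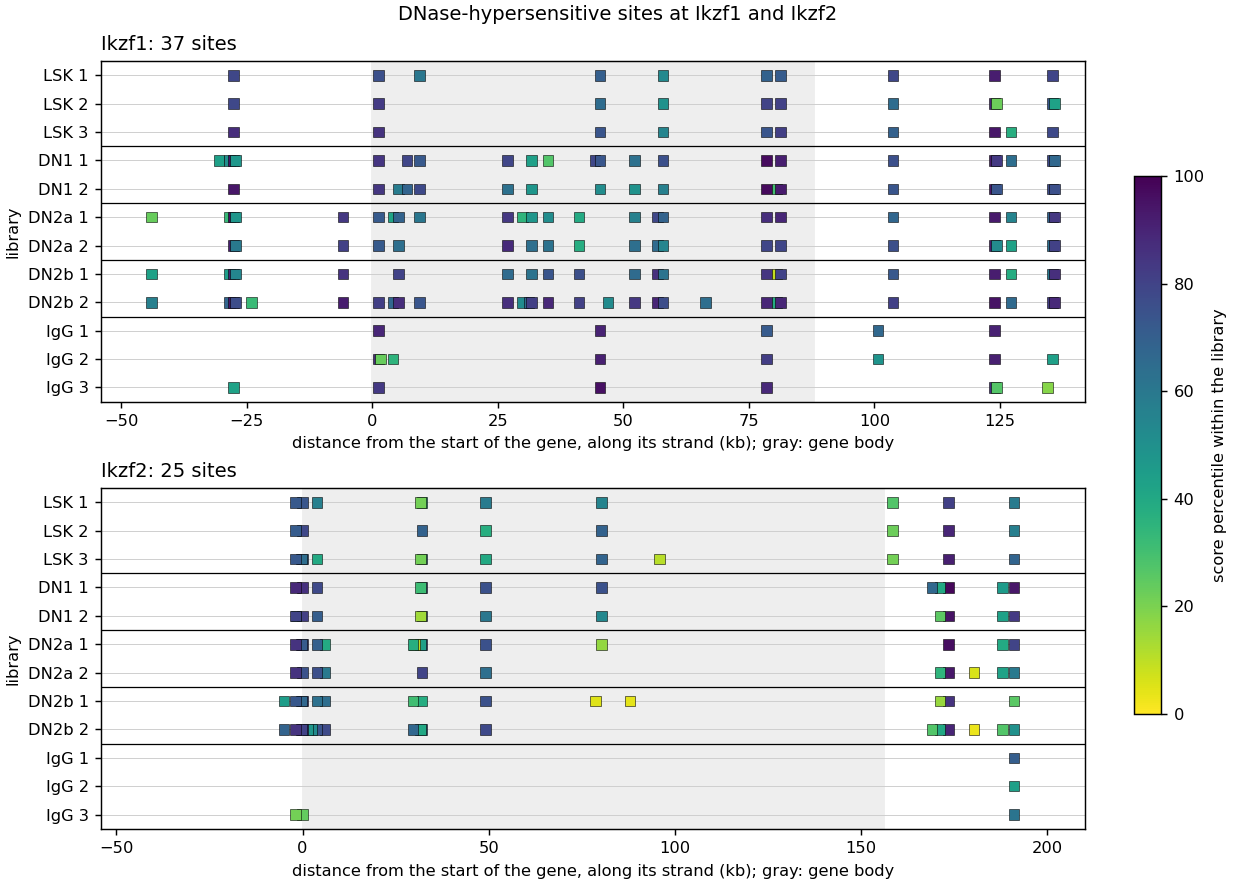
DHSs at Ikzf1 (37) and Ikzf2 (25) in each library, by distance from the start of the gene in kb. Rows are libraries, squares are peaks coloured by score percentile, and gray marks the gene body. At Ikzf1 the body fills with DHSs from DN1 on, and at Ikzf2 the IgG rows hold 1, 1 and 3 DHSs.

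Ikzf2 (ENSMUSG00000025997.13, chr1:69531214-69687245, minus strand) was accessible in LSK cells and in every Delta1 stage and had few DHSs in IgG cultures. Open DHSs numbered 10, 8 and 12 in LSK, 12 and 12 in DN1, 14 and 11 in DN2a, 14 and 18 in DN2b, and 1, 1 and 3 in IgG. At equal lengths the 9 other libraries had 6 to 9 and the IgG counts were unchanged. Per 10000 peaks, IgG libraries had 0.457 ± 0.298 open DHSs (SD, n = 3) and the others 1.78 ± 0.311 (SD, n = 9). The difference of -1.33 passed the exact permutation test (adjusted p = 0.0266 over 21755 genes), where 7.55% of genes were called lower and 14.4% higher in IgG. The adjusted p was 0.0547 at equal lengths and 0.0739 to 0.0897 when an IgG library was left out. In each of these settings 0 of 21755 genes were called, and without an IgG library the difference was -1.50 to -1.23. No other protein-coding gene lies in the Ikzf2 window.

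The Ikzf2 promoter had percentiles of 73.4, 78.5 and 69.4 in LSK, 86.3 and 81.3 in DN1, 80.0 and 75.0 in DN2a, 82.9 and 87.1 in DN2b, and 0, 0 and 24.0 in IgG. The IgG libraries lay below all others, and Delta1 libraries overlapped with LSK. The difference between IgG and the rest was -71.3 (exact permutation test, adjusted p = 0.0235), and it was -53.6 at equal lengths, where adjusted p was 0.0598. Leaving out an IgG library gave adjusted p values of 0.0756 to 0.0891. The difference was then -79.3 to -67.3, and 0 of 21755 promoters were called. Over all genes, 22.3% of promoters were called lower in IgG and 0.584% higher. Between Delta1 libraries and those without ligand the difference was 41.2 (exact permutation test, adjusted p = 0.062). It passed this exact permutation test without LSK replicate 2 (48.7, adjusted p = 0.0403, 5.26% of promoters called higher), without LSK replicate 3 (46.9, adjusted p = 0.0477, 8.90%) and with peaks up to 2.5 kb from the start (43.7, adjusted p = 0.0387, 5.36%). In this comparison 4.77% of promoters were called higher and 0.202% lower.

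Site 4, between genes 173.5 kb past the Ikzf2 start, had the largest loss in IgG among the 143 DHSs. Its percentiles were 81.0, 89.3 and 91.3 in LSK, 98.3 and 95.2 in DN1, 96.2 and 93.5 in DN2a, 85.3 and 89.6 in DN2b, and 0 in all 3 IgG libraries. The groups did not overlap, and the 9 peaks remained at equal lengths (64.9 to 94.9). The difference was -91.1 (exact permutation p = 0.00455, adjusted p = 0.0429). Site 13 (chr1:69655057-69655266), in an Ikzf2 intron at 32.1 kb, was also open in the 9 other libraries, at 38.1 to 80.0, and in no IgG library, although 1 DN2b peak was lost at equal lengths.

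Of the 3 Ikzf2 DHSs called higher in Delta1 libraries, 2 lay inside the gene. Site 18 (chr1:69683197-69683406), overlapping a coding exon at 3.94 kb, had 56.8, 0 and 39.6 in LSK, 77.8 and 70.6 in DN1, 69.6 and 75.9 in DN2a, and 63.1 and 74.3 in DN2b. Site 12 (chr1:69637977-69638266), in an intron at 49.1 kb, had 58.6, 37.2 and 39.6 in LSK, 75.0 and 60.2 in DN1, 75.4 and 63.9 in DN2a, and 75.2 and 77.9 in DN2b. Neither had an IgG peak, and the lowest Delta1 library lay above the highest LSK library at both. The differences were 55.8 and 48.7 (exact permutation test, adjusted p = 0.0394 for each). At equal lengths LSK replicate 1 fell inside the Delta1 range at both DHSs. The DN2 stages differed from LSK and DN1 at site 17, with 39.3 and 59.5 in DN2a and 64.4 and 77.4 in DN2b against no peak, and at site 10 (chr1:69606957-69607126, an intron at 80.2 kb). Site 10 had 54.9, 68.8 and 68.3 in LSK and 75.0 and 53.4 in DN1, and in DN2 a single peak of 16.1 in DN2a replicate 1. At equal lengths the DN2a replicate 1 peak was lost at both, and the differences of 60.1 and -60.1 became 21.5 and -28.7. Site 1 (chr1:69496157-69496386), between genes at 191.0 kb, was the only Ikzf2 DHS open in all 12 libraries, at 25.6 to 93.8 with DN1 highest.

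Ikzf3 (ENSMUSG00000018168.8, chr11:98464902-98546031, minus strand) lies among Erbb2, Mien1, Grb7, Zpbp2 and Ormdl3, and 24 of its 35 DHSs lay outside its own body. Open DHSs numbered 9, 11 and 9 in LSK, 19 and 16 in DN1, 14 and 16 in DN2a, 14 and 26 in DN2b, and 8 in each IgG library. At equal lengths these became 6 to 8 in LSK, 7 to 8 in DN1, 9 to 12 in DN2a, 10 to 12 in DN2b and 7 to 8 in IgG. No LSK library had a peak inside the Ikzf3 body. The Ikzf3 promoter had a peak in DN2b alone, with low percentiles of 15.3 and 22.2, and neither was left at equal lengths.

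Inside the Ikzf3 body, site 13 at 75.9 kb was the main DHS gained. Its percentiles were 41.4 and 62.5 in DN2a and 81.0 and 91.4 in DN2b, with no LSK or DN1 peak and a single IgG peak of 12.2. DN2b lay above DN2a in both libraries. The mean difference from LSK and DN1 was 69.1 (exact permutation p = 0.00794, adjusted p = 0.266), and at equal lengths 1 DN2a peak and the IgG peak were lost.

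The DHSs upstream of Ikzf3 differed between groups in opposite directions. Site 34 (chr11:98588157-98588366, within 1 kb of the Ormdl3 start and 42.2 kb upstream of Ikzf3) had 92.9, 79.2 and 86.8 in LSK and 12.2, 11.4 and 40.0 in IgG, and no peak in any Delta1 library. It was the only member DHS called lower in Delta1 libraries, by -53.8 (exact permutation test, adjusted p = 0.0394), and it kept this pattern at equal lengths. Site 31 (chr11:98582797-98582986, midpoint in an Ormdl3 intron, with bases in its last exon) had 84.8, 87.3 and 91.3 in LSK and 67.7 and 51.5 in DN1, and no peak in DN2 or IgG. The LSK values lay above the DN1 values, and at equal lengths a single DN1 peak of 5.56 was left. Site 26 (chr11:98551537-98551766, within 1 kb of the Zpbp2 start) moved the other way, with 8.11, 25.6 and 6.52 in LSK, 60.7 and 70.6 in DN1, 77.8 and 63.9 in DN2a, 63.1 and 85.0 in DN2b, and 0, 3.44 and 0 in IgG. At equal lengths no LSK peak and 5 of 6 Delta1 peaks were left at site 26.

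Downstream of Ikzf3, site 5 at 88.5 kb was open in all Delta1 libraries and in no other, with 62.0 and 16.9 in DN1, 56.5 and 66.5 in DN2a, and 49.0 and 79.0 in DN2b. Only the 4 DN2 peaks were left at equal lengths. The adjacent site 6 (chr11:98457777-98458006) was open everywhere, at 26.6, 29.3 and 29.5 in IgG and 57.2 to 85.9 in the other libraries. The IgG libraries lay below all others (difference -42.0, adjusted p = 0.0429 by the exact permutation test), whereas at equal lengths IgG replicate 2 (29.3) and LSK replicate 2 (29.1) overlapped. Sites 33 (chr11:98587217-98587406, an untranslated exon of Ormdl3) and 2 (chr11:98438837-98439066, an untranslated exon of Mien1) were open in all 12 libraries, at 78.1 to 98.5 and 72.0 to 92.0.

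**Figure D4:**
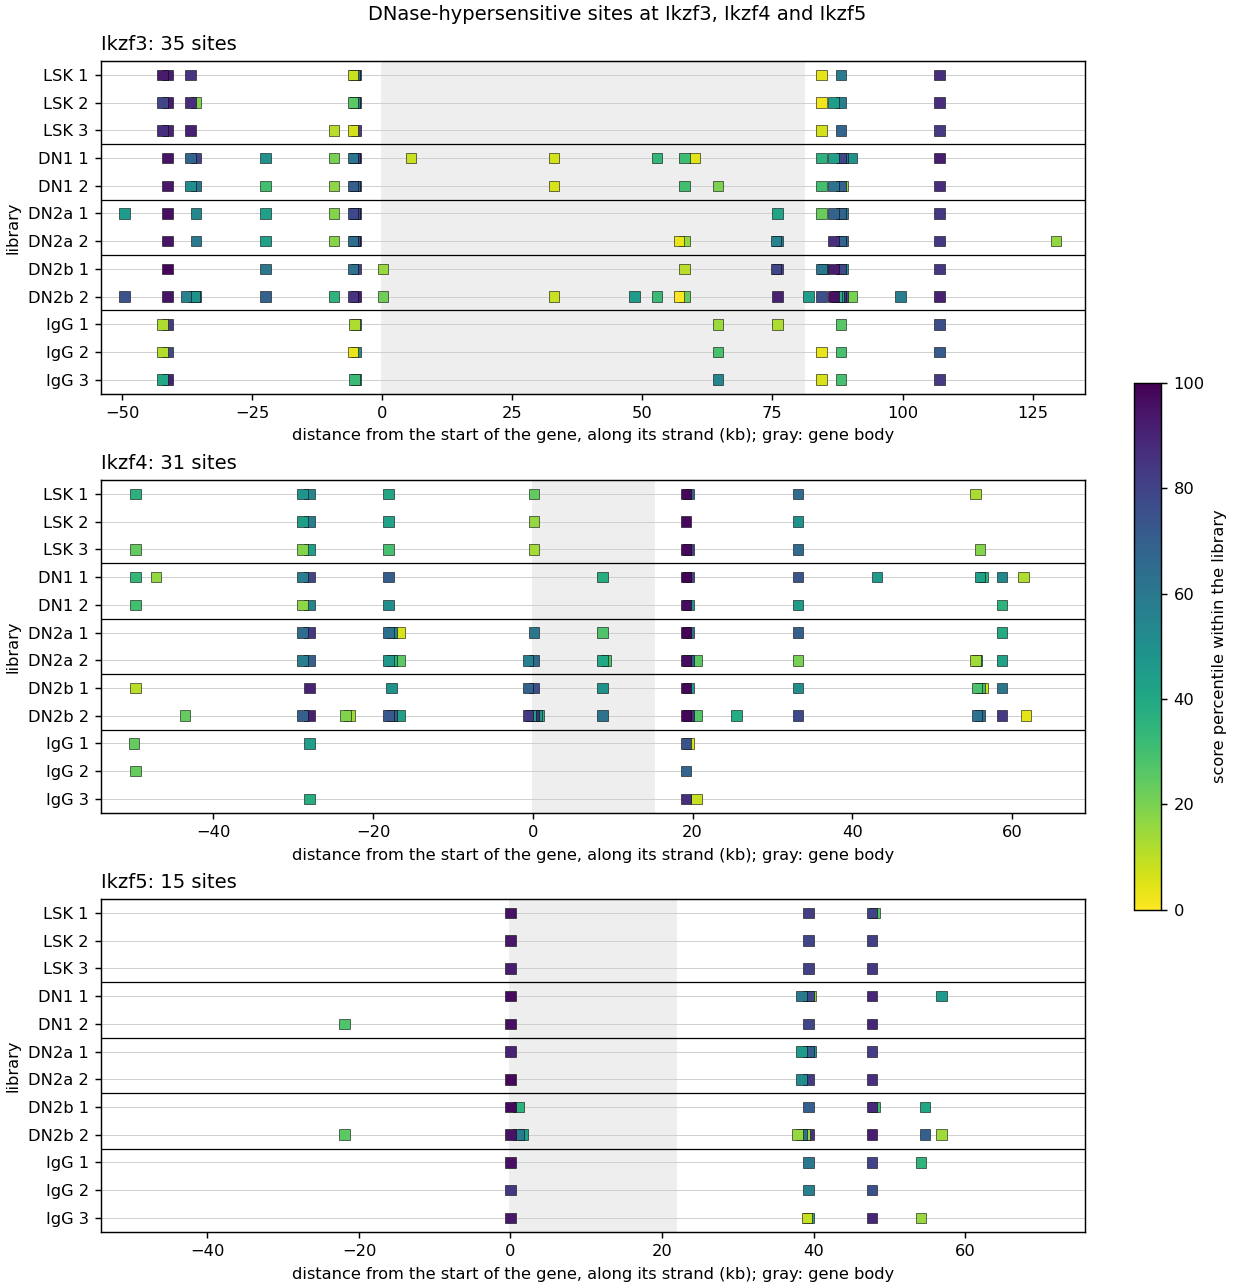
DHSs at Ikzf3 (35), Ikzf4 (31) and Ikzf5 (15) in each library, by distance from the start of the gene in kb. Rows are libraries, squares are peaks coloured by score percentile, and gray marks the gene body. The Ikzf3 body is without peaks in the 3 LSK rows, and the Ikzf4 start has peaks in LSK, DN2a and DN2b rows only.

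Ikzf4 (ENSMUSG00000002578.17, chr10:128630843-128645991, minus strand) is the shortest member, at 15.1 kb, and shares its window with Erbb3, Rps26, Suox and Rab5b. Open DHSs numbered 9, 6 and 9 in LSK, 14 and 8 in DN1, 11 and 16 in DN2a, 13 and 23 in DN2b, and 4, 2 and 3 in IgG. At equal lengths there were 3 to 6 in LSK, 2 to 5 in DN1, 8 to 9 in both DN2 stages and 2 to 3 in IgG. The DN2 libraries were then above all others.

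The promoter of Ikzf4 differed most between LSK, DN1 and DN2 among the 5 promoters. Its DHS, site 18 (chr10:128645757-128645966, in the first untranslated exon), had percentiles of 24.2, 16.2 and 13.3 in LSK, 0 and 0 in DN1, 60.9 and 66.5 in DN2a, 76.0 and 87.1 in DN2b, and 0 in all 3 IgG libraries. The 4 DN2 libraries lay above every other library, DN2b lay above DN2a, and the LSK peaks ranked low. The means were 72.6 ± 11.5 in DN2 (SD, n = 4) and 10.7 ± 10.6 in LSK and DN1 (SD, n = 5), a difference of 61.9 at the smallest p that 126 divisions allow (exact permutation p = 0.00794). Adjusted over 21755 promoters this p was 0.566. At equal lengths the LSK peaks were lost and the DN2 peaks were left, at 18.8 and 41.4 in DN2a and 55.2 and 56.2 in DN2b.

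Other Ikzf4 DHSs were open in Delta1 stages alone. Site 22, 17.7 kb upstream, had 53.1 and 35.1 in DN2a and 49.0 and 72.3 in DN2b and no other peak, and 3 of these 4 were left at equal lengths, at 6.14 or below, near the lower end of the peaks compared. Site 3, in Erbb3, had 53.7 and 35.7 in DN1, 39.3 and 42.3 in DN2a, and 60.5 and 83.3 in DN2b and no LSK or IgG peak, and 3 of 6 were left at equal lengths, at 0.486, 26.3 and 43.6. Site 9, between genes at 33.2 kb, was open in all 9 libraries other than IgG at 20.5 to 77.9 and in no IgG library, with 7 of the 9 left at equal lengths. Site 13 (chr10:128626717-128626906), the Rps26 promoter, was at 96.8 to 99.4 in the 9 libraries and at 74.3, 68.2 and 86.3 in IgG. Rps26 encodes a ribosomal protein, and the IgG libraries lay below the rest at equal lengths as well (difference -22.0 both ways, adjusted p = 0.0429 by the exact permutation test with lists as deposited).

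Ikzf5 (ENSMUSG00000040167.16, chr7:131388652-131410521, minus strand) varied least. Its promoter DHS, site 14 (chr7:131410377-131410706), which is also the promoter of Acadsb, had percentiles of 95.4, 93.9 and 92.1 in LSK, 97.2 and 95.9 in DN1, 90.4 and 98.1 in DN2a, 97.7 and 95.2 in DN2b, and 95.8, 84.0 and 93.8 in IgG. DN1 lay above LSK and IgG with lists as deposited but overlapped with both at equal lengths, and the other groups overlapped. Open DHSs numbered 3 to 4 in LSK, 4 to 6 in DN1, 4 to 5 in DN2a, 6 and 11 in DN2b, and 3 to 5 in IgG, and 3 to 4 in every library at equal lengths. Site 7 (chr7:131371057-131371246, an untranslated exon of Pstk) was at 60.1, 56.9 and 44.7 in IgG against 69.9 to 85.4 elsewhere (difference -24.9, exact permutation test, adjusted p = 0.0429), and the groups overlapped at equal lengths. Site 5 (chr7:131362697-131362946, within 1 kb of the start of 2310057M21Rik) was open in all libraries at 75.2 to 92.4.

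**Figure D5:**
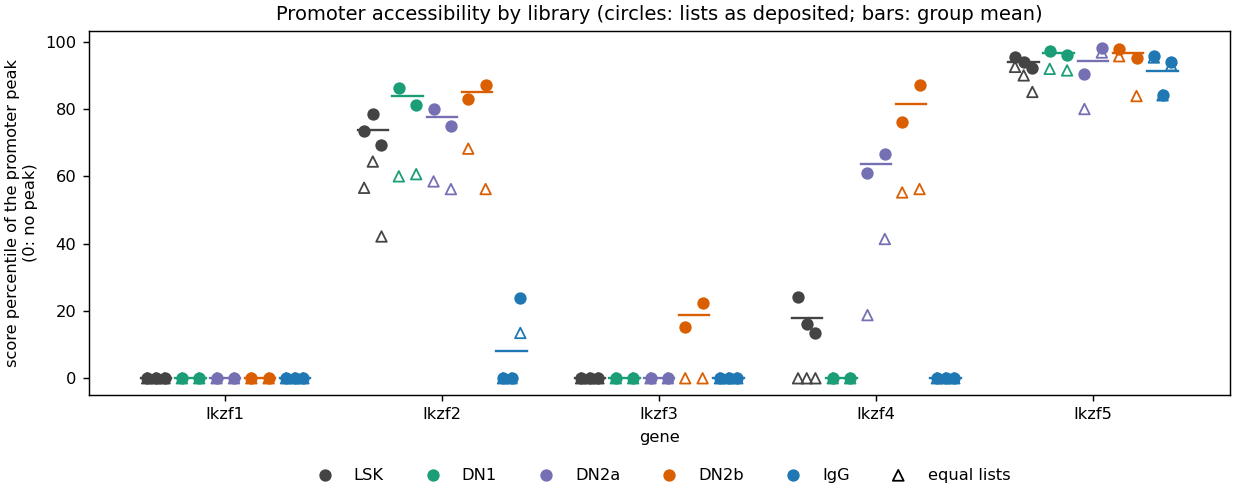
Score percentile of the promoter peak of each member in the 12 libraries, where 0 means no peak within 1 kb of the gene start. Circles are lists as deposited, triangles are equal lists, and bars are group means. Ikzf5 stays at 84.0 to 98.1, Ikzf4 reaches 60.9 to 87.1 in DN2 libraries only, and Ikzf2 is at 0, 0 and 24.0 in IgG.

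Ikzf1 had no peak within 1 kb of the 5′ end of its gene record in any library. Its start region was marked instead by site 8 (chr11:11686097-11686306, an untranslated exon at 1.20 kb), which lies within 1 kb of 4 further protein-coding transcript starts and was picked after its values were seen. Site 8 had 75.5, 82.7 and 85.2 in LSK, 84.5 and 84.2 in DN1, 71.6 and 72.1 in DN2a, 0 and 81.5 in DN2b, and 89.4, 87.9 and 83.2 in IgG. It was open in 11 of 12 libraries and missing only from DN2b replicate 1. At equal lengths the IgG libraries, at 80.9 to 87.9, lay above all others, which reached at most 72.0 (difference 35.1, against 16.0 with lists as deposited). Site 11 (chr11:11689997-11690286), also picked after its values were seen, overlaps the 250 bp before a further Ikzf1 start of RefSeq. It had 0 and 58.6 in DN1, 68.5 and 63.9 in DN2a, 80.3 and 87.4 in DN2b and no LSK or IgG peak. Its 5 peaks were left at equal lengths, and it was called in no comparison. By the 1 kb rule the promoters ranked, by their highest group mean, from Ikzf5 (96.6 in DN1) through Ikzf2 (85.0 in DN2b) and Ikzf4 (81.5 in DN2b) to Ikzf3 (18.7 in DN2b). Ikzf2 and Ikzf4 overlapped in their DN2b values. Ikzf1 has no peak by that rule and is not ranked, while its site 8 had a mean of 86.8 in IgG.

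The design gave 3 comparisons. The first set the 6 Delta1 libraries against the 6 LSK and IgG libraries, which had no ligand. Of the Delta1 libraries 4 also had IL-7 and all were sorted by stage, and the LSK cells were not cultured, so that ligand, IL-7, sorting and culture cannot be told apart in it. Among the 143 member DHSs, 13 (9.09%) were called higher and 1 (0.699%) lower at an adjusted p under 0.05, against 5.23% and 0.272% of all DHSs. The 13 were 5 at Ikzf1, 3 at Ikzf2, 4 at Ikzf3 and 1 at Ikzf4. Open in all 6 and in none of the other libraries were 6 member DHSs (4.2%) against 1.9% of all, namely 3 at Ikzf1 (sites 14, 17 and 23), 2 at Ikzf3 (sites 5 and 28) and site 3 at Ikzf4, and the reverse held for site 34 at Ikzf3 alone, against 0.0987% of all. The median difference was 11.1 percentile points over member DHSs and 4.82 over all. At equal lengths 2 of 76 member DHSs were called higher (2.63%, against 4.13% of all) and 2 lower (2.63%, against 1.73%), so the larger share of gains at these loci was not seen there. No member DHS was called when DN1 replicate 1 or any DN2a or DN2b library was left out, where even complete splits did not pass. With any 1 library left out, differences were 75.7 to 80.7 at Ikzf1 site 14, 46.3 to 55.8 at Ikzf4 site 3 and -62.2 to -45.9 at Ikzf3 site 34.

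The second comparison asked what distinguishes the DN2 stages from LSK and DN1 cells (4 against 5 libraries). No DHS of the genome could be called, the smallest adjusted p being 0.266, with the rank-sum statistic giving 0 member calls as well, and 24 member DHSs (16.8%) were higher and 4 (2.80%) lower at an unadjusted p under 0.05, against 5.30% and 3.96% of all DHSs. Open in all 4 DN2 libraries and in no LSK or DN1 library were 6 member DHSs (4.2%) against 0.782% of all DHSs, of which 3 lay at Ikzf1 and 1 each at Ikzf2, Ikzf3 and Ikzf4. The reverse held for 2 (1.4%) against 0.757%, Ikzf1 site 21 and Ikzf3 site 31. At equal lengths 5 of 76 (6.58%, against 2.13% of all) were gained and 1 (1.32%, against 1.19%) was lost. Of those 5, Ikzf1 sites 7 and 24 had this pattern with lists as deposited too, whereas Ikzf1 site 23, Ikzf3 site 5 and Ikzf4 site 18 have LSK or DN1 peaks outside the equal lists. The 1 lost was Ikzf2 site 10, which has a DN2a peak outside them. The median difference was 6.95 over member DHSs and 0.37 over all.

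The third comparison set the 3 IgG libraries against the other 9. Of the member DHSs, 16 (11.2%) were called lower and 0 higher, against 7.82% and 2.78% of all DHSs, and 4 (2.80%) were higher at an unadjusted p under 0.05, against 5.27% of all DHSs. The 16 were 5 at Ikzf1, 5 at Ikzf2, 3 at Ikzf3, 2 at Ikzf4 and 1 at Ikzf5. Open in all 9 others and in no IgG library were 7 (4.9%), against 3.17% of all DHSs, 3 at Ikzf1, 3 at Ikzf2 and 1 at Ikzf4, and none was open in all 3 IgG libraries and in no other, against 1.89% of all. At equal lengths 4 of 76 (5.26%, against 1.95%) were open in all 9 and in no IgG library, and 1 (1.32%, against 6.23%), Ikzf3 site 15, showed the reverse. At equal lengths 8 of 76 were called lower (10.5%, against 4.63%) and 2 higher (2.63%, against 8.79%). The rank-sum statistic called 0 member DHSs, and leaving out any library other than DN2b replicate 2 also left 0. With 1 library left out, differences were -92.3 to -90.2 at Ikzf2 site 4 and -27.0 to -18.0 at Ikzf4 site 13.

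The proteins that work with Ikaros were examined through their promoters. Of 19 genes for the complexes that Ikaros joins (NuRD, SIN3, CTBP and SWI/SNF subunits), 17 to 18 were open in LSK libraries and 16 to 18 in IgG libraries, and 1 was called higher in Delta1 libraries (against 4.77% of all promoters) and 4 lower in IgG. Mta3, a NuRD subunit, was in both, with 66.4, 47.0 and 37.2 in LSK, 84.5 and 77.8 in DN1, 77.0 and 67.7 in DN2a, 76.0 and 80.1 in DN2b and 0 in all IgG libraries. The 4 lower in IgG are close to the 22.3% of all promoters called so. The other 3 were Mta2, Sin3a and Smarcb1. Their differences were -14.3, -27.8 and -31.0 (exact permutation test, adjusted p of 0.0235, 0.0397 and 0.0235). The median over the 19 was 3.41 for Delta1 and -4.41 for IgG, against 0.204 and -1.32 over all promoters. At equal lengths these medians changed sign, to -0.315 and 0.651, against 0 and 0 over all promoters. The calls of these complex genes were also lost with single libraries left out. For Delta1, 0 of 21755 promoters were called without any DN1, DN2a or DN2b library. For IgG, 0 were called without any IgG library.

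Of 14 genes known to be regulated by Ikaros proteins in lymphocytes, 5 were open in every LSK library, 7 in DN1, 7 to 8 in DN2a, 7 to 9 in DN2b and 3 to 5 in IgG. Called higher in Delta1 libraries were Il7r (the IL-7 receptor), Rag1 (antigen receptor recombination) and Hes1 (a Notch target), against 4.77% of all promoters. The differences were 58.8, 59.2 and 40.0 (exact permutation test, adjusted p = 0.0436 for each). These calls were lost, with 0 of 21755 promoters called, when any DN1, DN2a or DN2b library was left out. Rag1 had no LSK or IgG peak, 29.4 and 53.4 in DN1, 49.3 and 66.5 in DN2a, and 67.9 and 88.9 in DN2b. Il7r, Hes1, Flt3 and Myc were called lower in IgG (4 of 14, against 22.3% of all promoters, exact permutation test, adjusted p = 0.0235 for each). When any IgG library was left out, 0 of 21755 promoters were called, so these calls were lost. Dntt, Cd8a, Cd4, Notch3 and Ptcra had no promoter peak in any library. The median difference over the 14 genes was 6.37 for Delta1 and -8.24 for IgG, and 0 and -0.455 at equal lengths. Of 5 genes of the cereblon ubiquitin ligase, which degrades Ikaros and Aiolos in the presence of thalidomide analogues, none was called in Delta1 libraries. Crbn and Ddb1 were called lower in IgG (22.3% of all promoters were), by -35.7 and -3.80, and neither was called when an IgG library was left out. At equal lengths, a setting added after seeing the data, none of these genes was called in either comparison, nor was any promoter of the genome, by the exact permutation test. At an unadjusted p under 0.05, 6.34% of all promoters were then higher and 6.65% lower in Delta1 libraries, and 5.33% were higher and 11.6% lower in IgG. By the same measure, 1 complex gene was higher and 4 lower in Delta1 libraries and 3 were higher and 3 lower in IgG, while of the regulated genes 2 were higher and 0 lower in Delta1 libraries and 1 was higher and 2 lower in IgG. Of the ligase genes 1 was higher and 0 lower in Delta1 libraries and 1 was higher and 1 lower in IgG. Hes1 then differed by 44.4 for Delta1 and -68.3 for IgG, Il7r by 59.0 and -42.4, Mta3 by 39.0 and -38.7, Rag1 by 24.0 for Delta1 and Crbn by -25.3 for IgG.

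The motif content of the member DHSs was close to that of all DHSs. In the central 150 bp of each DHS, TGGGAA was found in 22 of 143 (15.4%, against 12.8% of all DHSs), TGTGGT in 19.6% (against 23.1%), AGATAA in 6.29% (8.25%), CTTTGA in 12.6% (11.2%), AGGAAG in 32.2% (33.5%) and CAGGTG in 13.3% (12.8%). The RUNX sequence TGTGGT lay in 7 of the 13 DHSs called higher in Delta1 libraries and AGGAAG in 1 of 13, small numbers given as a description. Counts of the other sequences in these 13, and shares among all DHSs called higher, are not given here. Among the printed DHSs, Ikzf1 site 29, Ikzf3 site 13 and Ikzf4 site 22 each hold TGTGGT on either strand, Ikzf3 site 13 and Ikzf4 site 9 hold TGGGAA, Ikzf1 site 14 and Ikzf2 site 4 hold AGATAA, and Ikzf2 site 17 and Ikzf3 site 5 hold none of the 6 sequences. Median GC content was 50.7% over member DHSs and 49.3% over all, from 46.0% at Ikzf2 to 56.0% at Ikzf4, and the median observed/expected CpG ratio was 0.253 against 0.242. RefSeq promoter windows of GRCm38.p6 matched 2 of the 5 members, Ikzf1 at 2 starts and Ikzf5. In the 250 bp before the start, Ikzf5 had 1 CTTTGA, found in 13.8% of 32851 promoters, and the second Ikzf1 start had 3 AGGAAG, found at least once in 29.5%. Such matches are short and do not mark a bound site.

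The genes whose number of open DHSs per 10000 peaks followed Ikzf1, Ikzf2, Ikzf3 or Ikzf4 most closely over the 12 libraries were found among 13297 genes with at least 5 DHSs per library on average. They were 5830411N06Rik, Lrguk and Oas2 for Ikzf1 (Pearson r of 0.953, 0.934 and 0.931), Ccdc33, Itgav and Sptbn1 for Ikzf2 (0.965, 0.959 and 0.957), Vps26b, Kctd18 and Evi5 for Ikzf3 (0.892, 0.891 and 0.890), and Gimap7, Gimap6 and Syt13 for Ikzf4 (0.943, 0.941 and 0.932). Between members r ranged from -0.49 (Ikzf2 and Ikzf5) to 0.708 (Ikzf2 and Ikzf4). These correlations describe 12 libraries that share groups and peak numbers and were drawn from many genes.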

How the data were processed

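DNase-seq was done on 12 libraries. According to the methods, the authors used bwa for alignment to mm10, and hotspot2 (false discovery rate 0.05) gave the peaks, deposited as 1 list per library. The labels' processing notes name BWA 0.7.12 and SAMtools 1.2. The deposited score of each peak, a whole number up to 150, has no stated meaning and served only to rank the peaks of a library. All peaks were 150 bp wide. Read depth is unknown, so no interval from counts is given.

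Peaks on autosomes and the X chromosome were merged across libraries, and 0.0622% of peaks, on other chromosomes, were left out. No pair of lists was identical. Groups came from the labels. The methods state that DN1, DN2a and DN2b cells were sorted from each LSK isolate, so libraries may share an isolate that the labels do not name, every test treats them as independent, and p-values measure only the spread between these libraries. Mean percentiles were compared by two-sided exact permutation tests over all divisions of the libraries (924, 126 and 220 in the 3 comparisons), with Benjamini-Hochberg adjustment over 170207 DHSs or 21755 protein-coding genes (numpy 2.4.6). The code was tested on simulated data. Sequences and motif counts used GRCm38, which no peak overran.

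The members, gene lists and tests were chosen with earlier results of these data known. Named at each locus were, in each comparison, the 2 DHSs with the largest difference among those open in all libraries of one set and in none of the other (failing that, among those whose sets did not overlap), and the 2 DHSs open in all 12 libraries with the highest median percentile. DHSs picked otherwise are marked as such. The genes most like Ikzf5 and some marker values are not reported here.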

Additional observations from a re-analysis of the deposited data

How the results depend on the processing

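The member counts depended on list length, and the calls on single libraries. A lost call was not a lost difference at the named DHSs. With 1 library left out, differences were 75.7 to 80.7 at Ikzf1 site 14 (Delta1) and -85.6 to -82.9 at Ikzf1 site 29 (IgG). They moved more at Ikzf3 site 34 (-62.2 to -45.9, Delta1). The excess of higher over lower Delta1 calls (13 against 1) was not seen at equal lengths (2 against 2), nor was that of the all-or-none counts (6 against 1, then 1 against 1). For Delta1, 14 member DHSs were called in either direction with lists as deposited, 4 at equal lengths, 9 with the upper 50% of each list, 8 in a window of 10 kb and 5 in gene bodies alone, and 0 to 16 when 1 library was left out. The corresponding all-or-none count of 7 was 2 at equal lengths, 4 with the upper 50%, 4 in the 10-kb window and 3 in gene bodies (7 to 10 with 1 library left out). For IgG, the 16 calls became 10 at equal lengths, 9 in the 10-kb window, 5 in gene bodies, 0 with the rank-sum statistic and 0 to 16 with 1 library left out. The all-or-none count of 7 lower and 0 higher became 4 lower and 1 higher at equal lengths, 4 in all in the 10-kb window and in gene bodies, and 7 to 11 with 1 library left out. For DN2, 0 were called throughout, and the all-or-none count of 8 was 5 in gene bodies and 8 to 11 with 1 library left out. Smaller windows hold fewer DHSs, which lowers their counts by construction. Otherwise the cause was not tested.

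Among the 16 DHSs called lower in IgG, Ikzf3 site 2 changed sign at equal lengths (-9.43 and 2.52). For DHSs per 10000 peaks the sign reversed for Ikzf5 in the Delta1 comparison (-0.0833, -0.157 to 0.0138 with 1 library left out and 2.33 as a number of DHSs), Ikzf3 for IgG (0.139, -0.438 at equal lengths, -0.986 with the upper 50% and -6.89 as a number) and Ikzf5 for IgG (0.397 and -1.11 as a number). As numbers of DHSs, the Delta1 differences at Ikzf3 (8.67, adjusted p = 0.0315 by the exact permutation test) and Ikzf4 (8.67, adjusted p = 0.0443) passed, against adjusted p values of 0.369 and 0.171 per 10000 peaks. At the Ikzf5 promoter the differences at equal lengths were -0.0402 for Delta1, -1.11 for DN2 and 1.09 for IgG, against 3.24, 0.432 and -3.88, and the DN2 difference was -0.50 to 2.10 with 1 library left out, below 0 without LSK replicate 3, DN2a replicate 2 or DN2b replicate 1. The cause was not tested. No paired analysis was possible because the labels give no replicate numbers that tie libraries of different groups together. Depth could not be assessed beyond the length of the lists.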
